A study of Mus musculus with 10 samples.

Results

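A set of 10 genes known from tissue-resident macrophages was followed in mouse kidney tumours treated with a RIG-I agonist, namely Lyve1, Timd4, Vsig4, Folr2, Cd163, Cbr2, F13a1, Selenop, Pf4 and Gas6. They were taken by gene symbol from the deposited count table, which held 10 of the 10 members among 18603 genes, and all 10 were among the 15883 genes tested. The treated tumours carried RENCA, a mouse kidney cancer cell line, under the skin of female Balb/c mice and were given SLR14 by injection into the tumour. SLR14 is a short hairpin RNA whose triphosphate makes it a ligand of RIG-I, a sensor of viral RNA, and lipid nanoparticles carried it. Control tumours were of the same line in the same strain and sex and received PBS. Effects of the RNA and of the nanoparticles therefore cannot be told apart. Mice were randomized at tumour sizes of 100 to 150 mm3, received 3 injections of 50 µL at intervals of 48 h, and tumours were taken 24 h after the last one, 5 tumours from 5 mice in each group. All cancer cells came from 1 line, the labels give no age of the mice, and whole tumours were measured, with no sorting of macrophages. Libraries held 17931895 to 39842608 counts in SLR14 tumours and 24161644 to 34024137 in PBS tumours. PBS tumour 5 stood apart from the other libraries, at 54.5 on the first principal component (36.4% of the variance), where the other 9 lay between -17.0 and 10.8. SLR14 tumour 2 was at the opposite end at -17.0, but near SLR14 tumour 5 at -12.7. The fit without PBS 5 and SLR14 2 is given beside the results. SLR14 tumour 2 was the highest SLR14 tumour for 9 of the 10 genes, so leaving it out lowers their mean in treated tumours.

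Resident macrophages settle in tissues, many before birth, and renew themselves locally, in contrast to macrophages that arrive as blood monocytes. They clear dying cells, haemoglobin and complement-coated particles, and they are recognised by the receptors and secreted proteins that serve these tasks. In tumours, cells with these genes are often found around vessels and at the border with healthy tissue. Lyve1, Folr2, Cd163, Cbr2, F13a1, Selenop, Pf4 and Gas6 are shared by many perivascular and interstitial macrophages, while Timd4 and Vsig4 mark narrower, long-lived populations.

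After SLR14, 9 of the 10 genes had lower mean levels than after PBS and Pf4 had a higher one, but none passed the test across all genes (edgeR). Levels are given as CPM, the gene's count scaled by the library's total after that total was adjusted by TMM. Selenop, the plasma selenium carrier, was 893 ± 138 CPM in SLR14 tumours and 1486 ± 391 CPM in PBS tumours (SD, n = 5 each), with no overlap. F13a1, the clotting factor XIII A chain, averaged 91.1 ± 67.4 CPM in SLR14 tumours and 184 ± 63.4 CPM in PBS tumours, and its groups overlapped. SLR14 tumours 2 and 4 had levels of Cd163, F13a1, Cbr2, Folr2 and Vsig4 inside the PBS range, whereas SLR14 tumours 1, 3 and 5 lay below every PBS tumour for these 5 genes. Of the 10 genes 0 passed an adjusted p of 0.05 in edgeR's quasi-likelihood test, where 0.963% of all genes tested passed, 0.29% as lower and 0.674% as higher in SLR14 tumours. DESeq2 called 2 of the 10, Selenop and Timd4, as lower, against 0.839% of its genes, and limma voom called 0 of the 10, against 0.296% of all genes as lower. On simulated counts DESeq2 made more false calls than edgeR. Without PBS 5 and SLR14 2, log2 fold changes were -1.83 for Lyve1, -1.72 for Timd4, -1.85 for Vsig4, -0.67 for Folr2, -0.82 for Cbr2, 0.19 for Pf4 and -0.28 for Gas6, and of the 10 genes only Selenop passed in edgeR.

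Unadjusted, 7 of the 10 genes had an edgeR p under 0.05 and were lower in SLR14 tumours, against 5.43% of all genes tested. Their median log2 fold change was -0.77, against -0.01 over all genes, of which 52.0% had a negative value. Timd4 reached the minimum level of the test in all 5 PBS tumours and in 0 SLR14 tumours, so a lower value in SLR14 tumours was built into its entry. Without it, 8 of 9 genes had negative values, 6 had an unadjusted edgeR p under 0.05, and the median was -0.73. The 10 genes were chosen with earlier results of these data known, so these counts describe them and are not independent evidence. In whole tumours, fewer macrophages of a type, less RNA per macrophage and changes in other cells with these genes cannot be told apart.

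**Figure D1:**
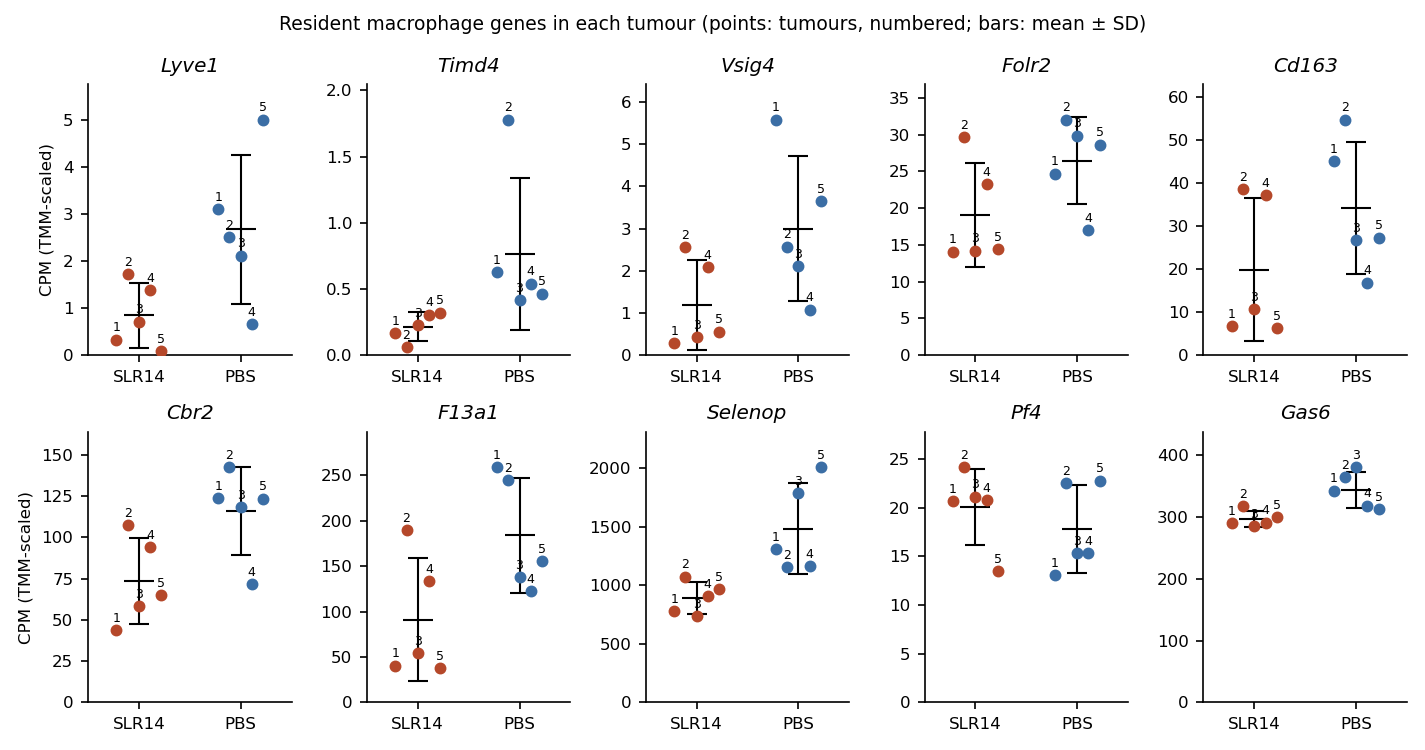
CPM of each gene in each of the 5 SLR14 tumours (left) and 5 PBS tumours (right), with numbered points for tumours and bars for the mean ± SD, on linear axes that start at 0. Selenop and Timd4 show no overlap between groups, and for Vsig4, Folr2, Cd163, Cbr2 and F13a1 the SLR14 tumours 2 and 4 stand above SLR14 tumours 1, 3 and 5.

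Promoter sequences were read for the members, 13 windows of 9 genes from RefSeq on GRCm38.p6, an older build than the mm39 of the deposited counts. Each window runs from 250 bases before an annotated start to 50 bases after it. They were searched on both strands for GAGGAAGT, the core bound by PU.1, the lineage factor of macrophages, for TGCTGAC, the partial site of MAF factors, and for the core of the interferon-stimulated response element, a pair of GAAA separated by 2 bases of any kind. The PU.1 core was in 4 of 13 member windows (F13a1, Pf4 and 2 overlapping windows of Selenop), against 3.2% of 32851 windows. The MAF motif was in 2 windows (Cbr2 and Timd4), against 4.67%, and the interferon core in 2 overlapping windows of Selenop, against 3.44%. The 2 Selenop windows hold the same sites, and the other Selenop window held no match. By gene, the PU.1 core was in 3 of 9 and the interferon core in 1 of 9, while the shares over all promoters are per window. A match describes these letters and is not a binding site. The windows below are those with a match for Selenop and Timd4, whose groups did not overlap, and for F13a1 and Cbr2, which varied together, written 5′ to 3′ on the strand of the gene with the matches in capitals. They lie at chr15:3270517-3270816 (plus strand, Selenop), chr11:46810549-46810848 (plus, Timd4), chr13:37049164-37049463 (minus, F13a1) and chr11:120731972-120732271 (minus, Cbr2). Matches on the opposite strand appear as the reverse complement, ACTTCCTC for the PU.1 core and GTCAGCA for the MAF motif.
Selenop: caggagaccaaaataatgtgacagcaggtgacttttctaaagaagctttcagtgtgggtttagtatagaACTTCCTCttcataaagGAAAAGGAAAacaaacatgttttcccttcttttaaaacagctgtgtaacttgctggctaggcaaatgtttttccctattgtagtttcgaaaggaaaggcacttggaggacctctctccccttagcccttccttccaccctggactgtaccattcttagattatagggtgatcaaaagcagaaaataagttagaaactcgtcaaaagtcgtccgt
Timd4: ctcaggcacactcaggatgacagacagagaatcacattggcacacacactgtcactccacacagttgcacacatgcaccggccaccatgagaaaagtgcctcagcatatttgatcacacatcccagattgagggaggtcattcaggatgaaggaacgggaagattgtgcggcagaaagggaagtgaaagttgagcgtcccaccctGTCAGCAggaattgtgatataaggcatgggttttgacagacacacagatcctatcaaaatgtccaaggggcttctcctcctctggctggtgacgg
F13a1: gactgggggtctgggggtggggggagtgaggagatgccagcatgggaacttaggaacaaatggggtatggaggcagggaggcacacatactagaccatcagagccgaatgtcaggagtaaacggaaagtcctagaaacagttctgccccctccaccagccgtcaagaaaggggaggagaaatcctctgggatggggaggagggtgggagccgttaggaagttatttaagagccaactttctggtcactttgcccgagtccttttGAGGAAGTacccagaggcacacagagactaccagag
Cbr2: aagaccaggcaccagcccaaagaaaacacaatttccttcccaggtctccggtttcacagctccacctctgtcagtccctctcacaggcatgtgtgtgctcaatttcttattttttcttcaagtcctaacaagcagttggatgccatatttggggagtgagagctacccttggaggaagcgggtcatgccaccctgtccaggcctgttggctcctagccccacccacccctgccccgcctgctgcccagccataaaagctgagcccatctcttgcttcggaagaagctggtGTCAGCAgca

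Among the surface receptors, Lyve1 (ENSMUSG00000030787) binds hyaluronan and also marks lymphatic endothelium. Its levels were 0.328, 1.73, 0.711, 1.38 and 0.0799 CPM in SLR14 tumours 1 to 5, the last from 3 counts. In PBS tumours 1 to 5 they were 3.10, 2.51, 2.11, 0.659 and 5.00 CPM. The groups overlapped, since PBS tumour 4 was lower than 3 of the SLR14 tumours. Its log2 fold change was -1.76 (SE 0.62, 95% interval -3.09 to -0.42, edgeR adjusted p = 0.306). Of 6 lymphatic endothelium markers, 2 were in the table and tested and 0 passed. Flt4, the lymphatic growth factor receptor, averaged 9.29 ± 1.52 CPM in SLR14 tumours and 10.3 ± 4.34 CPM in PBS tumours. The other was Pdpn, at 288 ± 20.6 CPM in SLR14 tumours and 280 ± 57.0 CPM in PBS tumours. The summed level of these 2 genes was 274 to 319 CPM in SLR14 tumours and 244 to 377 CPM in PBS tumours. Nearly all of this sum was Pdpn, since Prox1, Ccl21a, Mmrn1 and Reln were not in the table. The part of lymphatic endothelium in Lyve1 was not tested.

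Timd4 (ENSMUSG00000055546), the phosphatidylserine receptor TIM-4 by which macrophages bind dying cells, was the lowest of the 10. It had 0.164, 0.0595, 0.228, 0.306 and 0.320 CPM in SLR14 tumours 1 to 5, from 1 to 12 counts. In PBS tumours 1 to 5 it had 0.627, 1.78, 0.415, 0.539 and 0.465 CPM, from 11 to 56 counts. All SLR14 tumours lay below all PBS tumours, and PBS tumour 2 stood far above the rest. The log2 fold change was -1.75 (SE 0.49, 95% interval -2.81 to -0.69, edgeR adjusted p = 0.154), and it was -1.17 without PBS tumour 2 (edgeR adjusted p = 0.292). DESeq2 gave -1.78 with an adjusted p of 0.0491.

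Vsig4 (ENSMUSG00000044206) is the complement receptor CRIg, which captures particles coated with complement fragments. It had 0.287, 2.56, 0.431, 2.09 and 0.560 CPM in SLR14 tumours 1 to 5. In PBS tumours 1 to 5 it had 5.58, 2.57, 2.11, 1.08 and 3.64 CPM. SLR14 tumours 2 and 4 lay within the PBS range, and the other 3 were below it. On the log2 scale the fold change was -1.43 (SE 0.57, 95% interval -2.67 to -0.19, edgeR adjusted p = 0.388).

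Folr2 (ENSMUSG00000032725), the folate receptor beta, had 14.1, 29.6, 14.2, 23.2 and 14.4 CPM in SLR14 tumours 1 to 5. In PBS tumours 1 to 5 it had 24.7, 32.0, 29.9, 17.0 and 28.7 CPM. The 3 low SLR14 tumours were nearly equal to each other and below PBS tumour 4, the lowest of its group. Its log2 fold change was -0.48 (SE 0.23, 95% interval -0.97 to 0.01, edgeR adjusted p = 0.470).

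Cd163 (ENSMUSG00000008845), the scavenger receptor for haemoglobin bound to haptoglobin, varied widely inside the treated group. It had 6.77, 38.7, 10.7, 37.2 and 6.34 CPM in SLR14 tumours 1 to 5. In PBS tumours 1 to 5 it had 45.2, 54.8, 26.7, 16.9 and 27.4 CPM. SLR14 tumours 2 and 4 were above 3 of the 5 PBS tumours, and the groups overlapped. On the log2 scale the fold change was -0.80 (SE 0.50, 95% interval -1.89 to 0.28, edgeR adjusted p = 0.586). It was -1.26 in limma voom and -1.28 in edgeR without PBS 5 and SLR14 2 (adjusted p = 0.371 and 0.356).

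Cbr2 and F13a1 encode enzymes. Cbr2 (ENSMUSG00000025150), a carbonyl reductase, had 43.8, 107, 58.1, 94.0 and 65.1 CPM in SLR14 tumours 1 to 5, against 124, 142, 118, 71.7 and 123 CPM in PBS tumours 1 to 5. Of the 5 PBS tumours, all but PBS tumour 4 were above every SLR14 tumour. The log2 fold change was -0.66 (SE 0.23, 95% interval -1.15 to -0.16, edgeR adjusted p = 0.306). F13a1 (ENSMUSG00000039109), a transglutaminase that crosslinks fibrin, had 40.3, 189, 54.6, 134 and 37.9 CPM in SLR14 tumours 1 to 5. In PBS tumours 1 to 5 it had 259, 245, 138, 122 and 155 CPM. SLR14 tumour 2 was higher than 3 PBS tumours, whereas SLR14 tumours 1, 3 and 5 were all below the lowest PBS value. The log2 fold change was -1.02 (SE 0.42, 95% interval -1.92 to -0.12, edgeR adjusted p = 0.405), and -1.54 without PBS 5 and SLR14 2 (edgeR adjusted p = 0.0736).

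Selenop, Pf4 and Gas6 encode secreted proteins. Selenop (ENSMUSG00000064373) had 782, 1074, 734, 907 and 968 CPM in SLR14 tumours 1 to 5, against 1310, 1155, 1788, 1166 and 2012 CPM in PBS tumours 1 to 5. Every SLR14 tumour was below every PBS tumour. The log2 fold change was -0.73 (SE 0.17, 95% interval -1.10 to -0.36, edgeR adjusted p = 0.0726). DESeq2 called it (-0.72, adjusted p = 0.00301), and so did edgeR without PBS 5 and SLR14 2 (-0.68, adjusted p = 0.0344), a fit that called 0.458% of all genes as lower. PBS 5 was the highest tumour for Selenop, and without it alone the value was -0.61 (edgeR adjusted p = 0.0656). Of the 10 genes, 2 had no overlap with SLR14 lower, Selenop and Timd4, against 1.32% of all genes tested, and 0 had no overlap with SLR14 higher, against 1.92%. For Timd4 this was built into its entry to the test, and without it 1 of 9 genes had no overlap with SLR14 lower.

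Pf4 (ENSMUSG00000029373), the chemokine platelet factor that macrophages and megakaryocytes make, departed from the others in direction. It had 20.7, 24.2, 21.1, 20.7 and 13.5 CPM in SLR14 tumours 1 to 5, against 13.03, 22.5, 15.3, 15.3 and 22.8 CPM in PBS tumours 1 to 5. The ranges overlapped, with a log2 fold change of 0.17 (SE 0.18, 95% interval -0.23 to 0.56, edgeR adjusted p = 0.738). Of 10 platelet and megakaryocyte markers 4 were in the table, and only Itga2b, the platelet integrin chain, was tested and did not pass (5.36 ± 1.01 CPM in SLR14 tumours, 4.33 ± 0.798 CPM in PBS tumours, edgeR adjusted p = 0.565). Ppbp, a chemokine of platelet granules, was near 0, at 0.387 ± 0.185 CPM in SLR14 tumours and 0.273 ± 0.113 CPM in PBS tumours. The 4 genes summed to 4.63 to 7.80 CPM in SLR14 tumours and 3.54 to 5.65 CPM in PBS tumours.

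Gas6 (ENSMUSG00000031451), the bridge between dying cells and the receptor kinases Axl, Mertk and Tyro3, differed by little and with little spread. It had 289, 317, 285, 290 and 299 CPM in SLR14 tumours 1 to 5, against 342, 364, 380, 318 and 313 CPM in PBS tumours 1 to 5. Only SLR14 tumour 2 reached into the PBS range. Its log2 fold change was -0.21 (SE 0.09, 95% interval -0.41 to -0.02, edgeR adjusted p = 0.418). Axl averaged 329 ± 33.6 CPM in SLR14 tumours and 286 ± 56.6 CPM in PBS tumours (edgeR adjusted p = 0.603), and Mertk 8.67 ± 2.31 CPM in SLR14 tumours and 8.74 ± 1.86 CPM in PBS tumours (edgeR adjusted p = 0.980). Of 13 tested genes for Gas6 partners and uptake of dying cells edgeR called 0, with 2 at unadjusted p below 0.05. The smallest p was that of Itgb3, an integrin chain, with a log2 fold change of 0.47 (SE 0.14, edgeR adjusted p = 0.181).

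**Figure D2:**
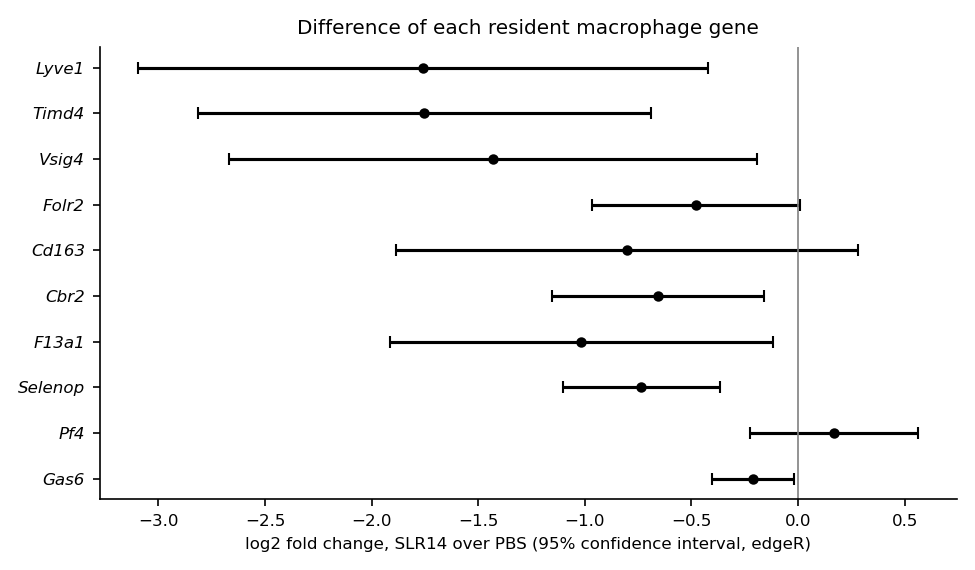
Log2 fold change of each gene, SLR14 over PBS, with its 95% confidence interval from edgeR, where 0 means equal levels. The intervals of Lyve1 and Vsig4 are the widest, that of Gas6 the narrowest (-0.41 to -0.02), and the intervals of Folr2, Cd163 and Pf4 span 0.

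Levels were compared between genes per kilobase of exon, using the exon lengths of GENCODE M21. The order in SLR14 tumours was Selenop (314 CPM per kb), Gas6 (116), Cbr2 (55.5), Pf4 (27.8), F13a1 (13.5), Folr2 (12.4), Cd163 (3.65), Vsig4 (0.799), Lyve1 (0.289) and Timd4 (0.0992). In PBS tumours the order was the same except that F13a1 (27.3 CPM per kb) stood before Pf4 (24.7). The other PBS levels were 523 for Selenop, 135 for Gas6, 87.3 for Cbr2, 17.1 for Folr2, 6.26 for Cd163, 2.02 for Vsig4, 0.916 for Lyve1 and 0.352 for Timd4. In both groups the ranges of Selenop, Gas6 and Cbr2 did not overlap, nor did those of Folr2 and Cd163, and in PBS tumours Cbr2 and F13a1 were also apart. All other neighbours in the order had ranges that overlapped, and F13a1 was higher than Folr2 in 2 of 5 SLR14 tumours and higher than Pf4 in 2 of 5 PBS tumours.

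Within a group, 6 of the 10 genes moved together from tumour to tumour. After the mean of each group was subtracted from log2(CPM + 1), the 15 pairs among Lyve1, Vsig4, Folr2, Cd163, Cbr2 and F13a1 had Pearson r from 0.71 to 0.98 over 10 tumours, with a median of 0.84. These 6 genes were picked after the values were seen, and the pairs share libraries and depth. Over all 45 pairs of the 10 genes r ran from -0.53 to 0.98 with a median of 0.44. Against the mean of the other 9, r was 0.97 for Folr2 and 0.95 for Cbr2 but 0.06 for Timd4, 0.30 for Selenop, 0.36 for Gas6 and 0.42 for Pf4. SLR14 tumour 2 was the highest of its group for 9 of the 10 genes, and SLR14 tumour 4 was among the top 2 for 7. PBS tumour 4 was the lowest of its group for 6.

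**Figure D3:**
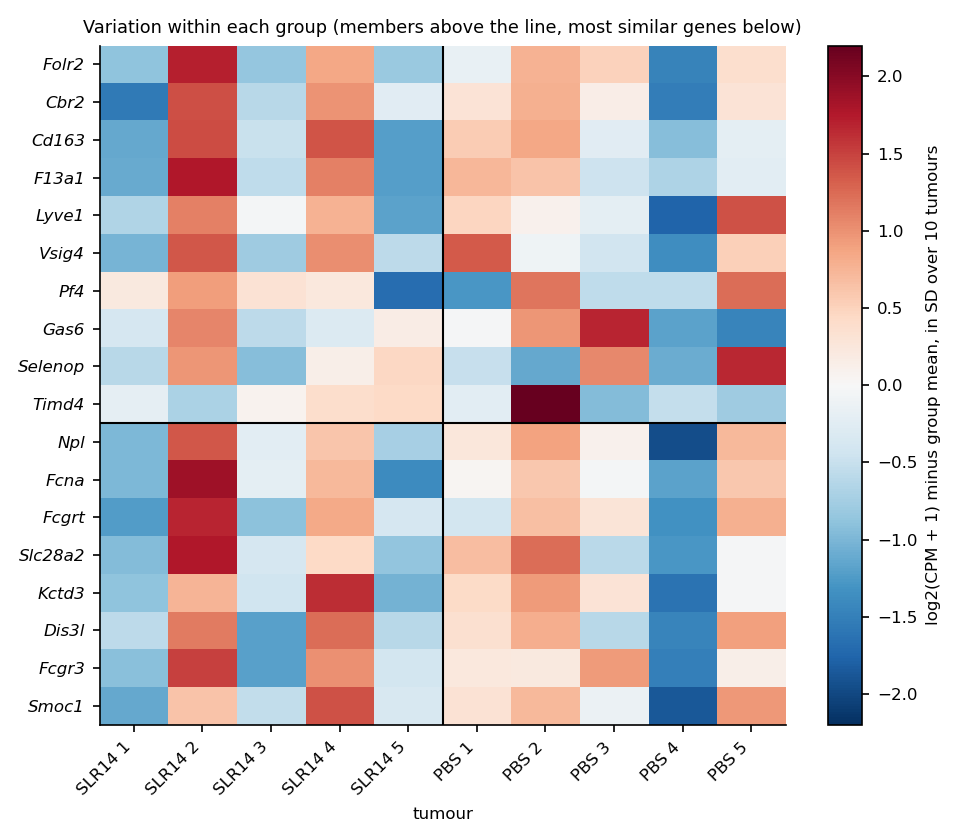
Log2(CPM + 1) of each gene minus the mean of its group, in SD over the 10 tumours, with SLR14 tumours 1 to 5 on the left and PBS tumours 1 to 5 on the right, members above the horizontal line and the 8 most similar genes below it. SLR14 tumours 2 and 4 are high and PBS tumour 4 is low for Folr2, Cbr2, Cd163, F13a1, Lyve1 and Vsig4, while Selenop, Gas6, Pf4 and Timd4 follow other patterns.

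Several measures of the libraries are given beside this pattern, whether or not they followed it. SLR14 tumours 2 and 4 had the smallest libraries, 17931895 and 20048831 counts, where the other 3 SLR14 tumours had 24301254, 39842608 and 37908548. Their summed level of 15 general macrophage genes was 3281 and 3177 CPM, where SLR14 tumours 1, 3 and 5 had 2822, 2741 and 2729 CPM. The mean log2(CPM + 1) of the same genes did not follow the pattern, since it was highest in SLR14 tumour 1 (6.88), above SLR14 tumours 2 (6.83) and 4 (6.82). PBS tumour 4, low for the members, had a middling sum of 2759 CPM among 2610 to 3047 CPM in PBS tumours. Their 7 neutrophil genes summed to 58.6 and 44.0 CPM, where the other 3 had 32.4, 25.4 and 33.0 CPM. Among PBS tumours the neutrophil sum was instead 22.4 CPM in PBS 4 and 14.4 and 14.3 CPM in PBS 1 and 2. The 10 interferon-induced genes summed to 410 and 427 CPM in SLR14 tumours 2 and 4, and to 665, 687 and 428 CPM in SLR14 tumours 1, 3 and 5. Erythroid genes summed to 36.8 and 89.0 CPM in SLR14 tumours 2 and 4, and to 28.6, 15.9 and 22.3 CPM in SLR14 tumours 1, 3 and 5. SLR14 tumour 2 also had the least of 8 skin, fat and muscle genes, 4.23 CPM against 125 to 180 CPM in the other SLR14 tumours, and the least of 10 fibroblast genes, 450 CPM against 1055 to 1527 CPM. The part of these measures in the pattern was not tested.

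The 8 genes outside the list whose within-group pattern was most like the mean of the 10, among 12059 genes ranked, were Npl, Fcna, Fcgrt, Slc28a2, Kctd3, Dis3l, Fcgr3 and Smoc1, with r from 0.90 to 0.97 over 10 tumours. High r was built into this choice, since the genes are the top of a long ranking over few tumours. Npl, a lyase of sialic acid, came first at 0.97. It was also lower after SLR14, at 15.9 ± 5.44 CPM in SLR14 tumours and 38.3 ± 11.6 CPM in PBS tumours (log2 fold change -1.28, SE 0.26, edgeR adjusted p = 0.0318). Leaving out PBS 1, PBS 2, PBS 3, SLR14 1, SLR14 3, SLR14 4 or SLR14 5, each alone, ended this call (edgeR adjusted p 0.0606 to 0.106). Fcna, the lectin ficolin A of resident macrophages, had r of 0.95, with 7.94 ± 5.33 CPM in SLR14 tumours and 18.2 ± 5.25 CPM in PBS tumours (edgeR adjusted p = 0.198), and it passed without PBS 5 and SLR14 2 (-1.58, edgeR adjusted p = 0.0235). The other 6 did not pass, with log2 fold changes of -0.56 for Fcgrt, the Fc receptor that recycles antibody, and -0.11 to 0.39 for the other 5.

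The defining markers of macrophages in general, Adgre1, Csf1r and Cd68, were well detected and did not pass the test. Adgre1, the F4/80 antigen, had 106 ± 12.1 CPM in SLR14 tumours and 101 ± 7.90 CPM in PBS tumours (log2 fold change 0.06, 95% interval -0.15 to 0.27, edgeR adjusted p = 0.814). Csf1r, the receptor of macrophage growth factor, had 292 ± 35.8 CPM in SLR14 tumours and 312 ± 68.2 CPM in PBS tumours (-0.09, interval -0.42 to 0.24, edgeR adjusted p = 0.825), and Cd68, a lysosomal protein, 237 ± 49.4 CPM in SLR14 tumours and 236 ± 38.4 CPM in PBS tumours (edgeR adjusted p = 0.989). The fold change of Adgre1 turned negative in 3 of its alternatives and that of Cd68 in 7. Of 15 such genes 4 had an unadjusted edgeR p under 0.05, Ctss, Fcer1g, Itgam and Fcgr1, each higher in SLR14 tumours. Over all 15883 genes tested, 1721 had such a p in either direction. After adjustment 1 of the 15 rose and 0 fell. This was Ctss, a lysosomal protease, at 251 ± 15.3 CPM in SLR14 tumours and 184 ± 13.3 CPM in PBS tumours (log2 fold change 0.44, edgeR adjusted p = 0.0310), and the call was lost in 8 of the 10 fits that left out 1 tumour, all but those without PBS 4 or PBS 5 (edgeR adjusted p 0.0525 to 0.125), and also with upper-quartile factors (edgeR adjusted p = 0.0625). The median log2 fold change of the 15 was 0.07, and they summed to 2729 to 3281 CPM in SLR14 tumours and 2610 to 3047 CPM in PBS tumours.

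Set against the mean log2(CPM + 1) of these 15 genes, 6.81 ± 0.0475 in SLR14 tumours and 6.69 ± 0.0835 in PBS tumours (SD, n = 5), the members differed as follows, with no test. Selenop lay 2.98 ± 0.224 above that mean in SLR14 tumours and 3.81 ± 0.358 above it in PBS tumours, and Gas6 1.40 ± 0.0697 above it in SLR14 tumours and 1.73 ± 0.122 above it in PBS tumours. Neither gene's groups overlapped on this scale, nor did those of Timd4, whose lower value was built into its entry to the test. The share of all genes without overlap on this scale was not computed. In CPM the groups of Gas6 overlapped. The mean subtracted here was itself higher in SLR14 tumours, which lowers the difference of every member. The difference between groups was -1.37 for F13a1, -1.15 for Cd163, -1.08 for Lyve1, -1.02 for Vsig4, -0.80 for Cbr2 and -0.60 for Folr2, each with overlap, and 0.05 for Pf4. On this scale the differences of Lyve1, Vsig4 and Timd4 are understated, since their CPM are close to the added 1.

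**Figure D4:**
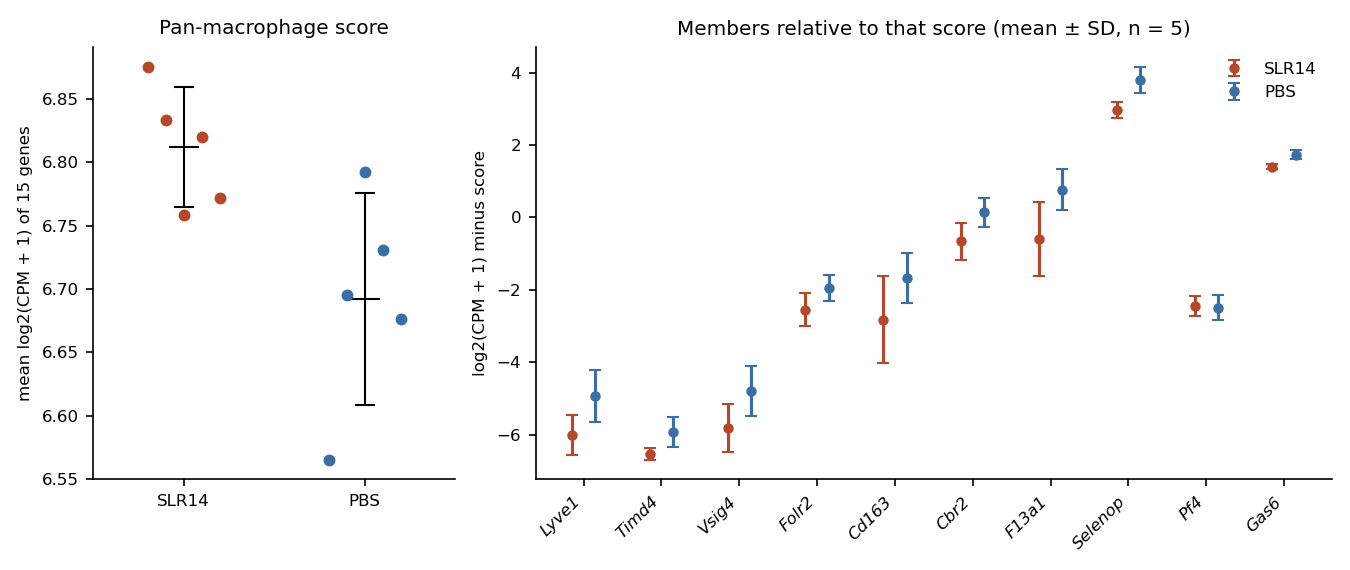
Left, the mean log2(CPM + 1) of 15 general macrophage genes in each tumour. Right, log2(CPM + 1) of each member minus that mean, as mean ± SD of 5 tumours, SLR14 left of PBS, with 9 of the 10 members lower in SLR14 tumours and Pf4 at -2.44 in SLR14 tumours against -2.49 in PBS tumours.

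Among other genes linked to resident macrophages, of 18 tested, 4 fell, 1 rose and 13 did not pass, with a median log2 fold change of -0.42. Over all genes tested, 0.29% were called lower and 0.674% higher. An unadjusted edgeR p under 0.05 was found for 10 of the 18, in either direction. Mgl2, a galactose-binding lectin, had 18.6 ± 4.69 CPM in SLR14 tumours and 49.9 ± 10.9 CPM in PBS tumours (log2 fold change -1.43, SE 0.19, edgeR adjusted p = 0.00254). Ccl24, a chemokine for eosinophils, fell to 0.498 ± 0.0985 CPM in SLR14 tumours, against 1.86 ± 0.405 CPM in PBS tumours (edgeR adjusted p = 0.00254). Cd209d, a C-type lectin with close paralogs whose counts may share reads, had 0 to 4 counts in SLR14 tumours and 21 to 69 in PBS tumours (log2 fold change -4.56, edgeR adjusted p = 0.00369). It reached the minimum level of the test in 0 SLR14 tumours and 5 PBS tumours, so a lower value was built into its entry, as for Timd4. Ednrb, an endothelin receptor that other cell types also express, fell by 1.03 on the log2 scale (edgeR adjusted p = 0.0122). The rise was that of Siglec1, the sialoadhesin of resident macrophages and a known interferon-induced gene, named after its values were seen, at 232 ± 33.2 CPM in SLR14 tumours and 118 ± 36.9 CPM in PBS tumours (log2 fold change 0.97, edgeR adjusted p = 0.0467). Its call was lost in 9 of the 10 fits that left out 1 tumour, all but the one omitting PBS 5 (edgeR adjusted p 0.0597 to 0.126), and also in limma voom (adjusted p = 0.0504), limma-trend (adjusted p = 0.0525) and with the stricter filter (edgeR adjusted p = 0.0511). Mrc1, the mannose receptor, had 507 ± 125 CPM in SLR14 tumours and 626 ± 200 CPM in PBS tumours (edgeR adjusted p = 0.620).

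Monocyte genes did not pass, with 0 of 11 called in edgeR, 5 at an unadjusted p under 0.05 and a median log2 fold change of 0.09. Ly6c2, a marker of inflammatory monocytes, had 4.45 ± 2.08 CPM in SLR14 tumours and 1.88 ± 0.298 CPM in PBS tumours (edgeR adjusted p = 0.239), and it passed in DESeq2 (adjusted p = 0.0491). SLR14 tumour 3 had 0.787 CPM of Ly6c2, where the other SLR14 tumours had 4.82 to 5.74 CPM. Without that tumour the log2 fold change of Ly6c2 was 1.51 (edgeR adjusted p = 0.00239). Of the fits that left out 1 tumour, it passed only in this one. Ccr2, the chemokine receptor of inflammatory monocytes, had 50.1 ± 21.1 CPM in SLR14 tumours and 47.3 ± 5.79 CPM in PBS tumours (edgeR adjusted p = 0.902). Of 10 partners in haemoglobin, folate and selenium handling edgeR called 0, with 3 at unadjusted p below 0.05. Hp, haptoglobin, which delivers haemoglobin to Cd163, had 3.96 ± 1.17 CPM in SLR14 tumours and 1.67 ± 0.777 CPM in PBS tumours (log2 fold change 1.24, SE 0.29, edgeR adjusted p = 0.0759). It passed in DESeq2 (adjusted p = 0.00164) and without PBS 5 and SLR14 2 (edgeR adjusted p = 0.00855).

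Lists of other cells that could carry some of the members are given as values. Fibroblasts can also make Gas6 and Selenop, and of 9 tested fibroblast genes edgeR called 0, though 4 had unadjusted p below 0.05 and 8 had negative values, with a median log2 fold change of -0.72. They summed to 450 to 1527 CPM in SLR14 tumours and 845 to 3342 CPM in PBS tumours, and their part in the difference of Gas6 or Selenop was not tested. Lum, the proteoglycan lumican, had the smallest p (log2 fold change -1.49, edgeR adjusted p = 0.239), and Col1a1, a chain of collagen I, had 588 ± 199 CPM in SLR14 tumours and 852 ± 533 CPM in PBS tumours. Of 8 blood endothelial genes edgeR called 0, also unadjusted (median -0.06). Erg, an endothelial transcription factor, had a log2 fold change of -0.44 (edgeR adjusted p = 0.525), and Pecam1, CD31, had 38.4 ± 7.33 CPM in SLR14 tumours and 43.2 ± 11.7 CPM in PBS tumours. None of 5 skin, fat and muscle genes passed in edgeR, adjusted or unadjusted, with Fabp4, a fatty acid carrier, at a log2 fold change of 0.64 (edgeR adjusted p = 0.559). Of 5 erythroid genes edgeR called 0. The one below 0.05 unadjusted was Hbb-bs, a globin with a near-identical copy (log2 fold change -1.12, edgeR adjusted p = 0.436). Of 6 conventional dendritic cell genes 2 fell. Zbtb46, a dendritic cell transcription factor, fell by 0.93 on the log2 scale (edgeR adjusted p = 0.0398). Cd209a, a lectin of monocyte-derived dendritic cells, had 1 to 6 counts in SLR14 tumours and 56 to 115 in PBS tumours (log2 fold change -4.36, edgeR adjusted p = 0.000129), and it too entered the test only through the PBS tumours. Of 6 neutrophil genes 3 rose, S100a8, S100a9 and the collagenase Mmp8, by 2.11 to 2.64 on the log2 scale (edgeR adjusted p 0.0127 to 0.0295). In limma voom none of these 3 passed (adjusted p = 0.0521 for S100a8, 0.135 for S100a9 and 0.0576 for Mmp8). Of 8 renal epithelial genes of the tumour 3 had negative values, with a median log2 fold change of 0.12, and 1 was called. This was Epcam, an adhesion molecule, with 3 to 51 counts in SLR14 tumours and 66 to 204 in PBS tumours. It fell to 0.617 ± 0.502 CPM in SLR14 tumours, against 3.45 ± 1.62 CPM in PBS tumours (edgeR adjusted p = 0.0324). As a check of treatment, 9 of 10 interferon-induced genes rose, among them Irf7, Rsad2, Oasl2 and Ifit1 with log2 fold changes of 1.54 to 2.46 (edgeR adjusted p 0.000396 to 0.00315). Without 1 tumour, Zbtb46 lost its call in 8 of 10 fits, S100a9 in 6, Epcam in 7 and Mmp8 in 1, and Epcam also without PBS 5 and SLR14 2 (edgeR adjusted p = 0.0567).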

How the data were processed

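RNA of 10 whole tumours was measured by sequencing. Per the labels' protocols, total RNA was depleted of ribosomal RNA, enriched with oligo(dT) beads and copied with random primers. The authors deposited raw counts per gene, and, per the submitters' processing notes, used the mm39 build with Trim Galore 0.6.7, STAR and DESeq2 1.36.0, with no role stated. Which program counted the reads, whether by strand and with which annotation, is unstated here. Values of overlapping or antisense genes and close paralogs are therefore uncertain. The authors' deposited second table, a per-sample scaled signal, served only the limma-trend alternative. Rows with an Ensembl ID but no symbol numbered 74, with 0.0295% of counts, and stayed in.

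Total counts were 17931895 to 39842608 in SLR14 tumours and 24161644 to 34024137 in PBS tumours. Sample titles gave the groups, with 5 mice each by the design. Same-group tumours all differed beyond counting noise in 20 pairwise tests (chi-square over its degrees of freedom at least 7.4). Genes were filtered with filterByExpr (minimum count 10, here 0.373 CPM in 5 samples), leaving 15883, and scaled by TMM. SLR14 was compared with PBS by the quasi-likelihood test of edgeR 4.0.16 in R 4.3.3, adjusted by Benjamini-Hochberg at 0.05 over all genes tested, with 153 called (107 higher, 46 lower, 0.963%). The standard error is the absolute log2 fold change over the square root of F. The tests were checked on simulated data, where edgeR, DESeq2 and limma voom all made more false calls than the nominal rate. DESeq2 made the most and limma voom the fewest.

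The members and the 15 other lists were chosen with earlier results of these data known. The named genes are the 10 members, up to 4 called genes of each list or else its smallest p, fixed markers, and the 8 genes most like the members with a mean CPM of at least 1, in all 53. Alternatives were other scalings, DESeq2 1.42.0, limma 3.58.1, other filters, a replicate block, the general macrophage score as a covariate, and leaving out tumours. No genome of the mm39 build was used. A named gene of the monocyte list is not reported here.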

Additional observations from a re-analysis of the deposited data

Results flagged for a closer look

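The groups of named genes and list scores numbered 140, and in 9 of them 1 tumour stood apart from the other 4 by a gap above 0.71 of the group's range (Dixon's test). Chance gives about 1 in 20 such groups. Among the members this held for Timd4 in PBS tumour 2, at 1.78 CPM where the other PBS tumours had 0.415 to 0.627 CPM. Among the other genes, Ccl24 was low in PBS 4 (1.17 CPM, others 1.88 to 2.17), Ctss high in SLR14 1 (278 CPM, others 243 to 244), Fabp4 high in SLR14 5 (6.18 CPM, others 3.02 to 3.67) and Ly6c2 low in SLR14 3 (0.787 CPM, others 4.82 to 5.74). Hbb-bs was high in SLR14 4 (44.9 CPM, others 9.37 to 18.8) and in PBS 5 (110 CPM, others 22.8 to 34.6), and the erythroid score was high in PBS 5 (3.83, others 2.48 to 2.70). The score of the haemoglobin, folate and selenium partners was high in SLR14 2 (5.10, others 4.94 to 4.98).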

How the results depend on the processing

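Each of the 10 members kept the sign of its fold change in every alternative that tested it, 20 for each gene and 19 for Timd4, which the filter of 1 CPM in 5 samples removed. Members called lower numbered 0, against 2 in DESeq2 and 1 without PBS 5 and SLR14 2, and 0 in every fit that left out 1 tumour. Without 1 tumour the edgeR adjusted p of Selenop was 0.0543 to 0.209. Over all genes, 153 calls (107 higher, 46 lower) became 407 (251, 156) in DESeq2, 78 (51, 27) with the replicate block, 8 (1, 7) with the general macrophage score as a covariate, and 215 with 74 lower without PBS 5 and SLR14 2. That score was 6.76 to 6.88 in SLR14 tumours and 6.57 to 6.79 in PBS tumours, so the covariate nearly separates the groups. The listed genes called numbered 21, against 32 in DESeq2, 12 with the replicate block and 2 with the covariate. Without 1 tumour, calls ranged from 69 to 194, higher calls from 44 to 123, lower calls from 25 to 71 and listed calls from 10 to 25. The labels do not say that replicate numbers pair mice. Deviations of same-numbered tumours correlated at -0.28 to 0.15 over 5 pairs, which cannot show whether mice were paired. The block is given only as an alternative fit.

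Signs turned only in genes near 0 that were not called. With 1 tumour left out, log2 fold changes ran from -0.33 to 0.0800 for Flt4, -0.14 to 0.079 for Mertk, -0.077 to 0.036 for Kctd3, -0.059 to 0.014 for Dis3l, -0.0071 to 0.099 for Adgre1, -0.12 to 0.091 for Cd68, -0.11 to 0.27 for Ccr2 and -0.021 to 0.16 for Smoc1. With the covariate they were -0.0082 for Adgre1, 0.012 for Kctd3 and 0.013 for Dis3l. Without PBS 5 and SLR14 2, Adgre1 was at -0.052 and Cd68 at -0.14. Cd68 was also at -0.029 with upper-quartile factors, -0.00067 with the stricter filter and -0.0013 with the replicate block, and Ccr2 at -0.0042 in limma voom, -0.015 in limma-trend and -0.015 with the replicate block. The cause of these turns was not tested. Depth limits Timd4, with 1 to 12 counts in SLR14 tumours. The replicate block also ended the calls of S100a8 (edgeR adjusted p = 0.0537), Mmp8 (0.0686), S100a9 (0.123), Npl (0.0761), Siglec1 (0.104), Zbtb46 (0.137) and Ctss (0.176).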
